A study of Mus musculus with 13 samples.

Results

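This report concerns the small GTPases of the Rab, Arf and Arl families in mouse spermatogonia, the germ cells of the testis that divide by mitosis. Members were taken by symbol (Rab, Arf or Arl followed by a number and at most 1 letter), and 82 of the 20662 symbols listed in both deposited tables matched: 56 Rab, 6 Arf and 20 Arl genes. The series holds RNA-seq samples of germ cells from the testes of C57BL/6 mice at postnatal week 8, and the labels name no genotype or treatment. Values of the 2 spermatogonial samples were analysed, titled KIT_AGSC and THY1_AGSC, with 1 library each. The other 11 samples (5 of spermatocytes, 5 of spermatids and 1 of mature sperm) were not analysed here. The titles name KIT, the receptor tyrosine kinase that binds stem cell factor on differentiating spermatogonia, and THY1, a surface glycoprotein by which undifferentiated ones are often enriched. The sources used here do not state how many mice were pooled or how the cells were isolated.

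Small GTPases of these families are switches on membranes. Bound to GTP they recruit effectors such as tethers, motors and coats, and bound to GDP they are inactive. Exchange factors load GTP and GTPase-activating proteins (GAPs) trigger its hydrolysis. Each Rab marks a particular compartment or transport step, with a lipid tail added by geranylgeranyl transferase and its cycling kept by GDP dissociation inhibitors. Arf proteins recruit vesicle coats, and Arl proteins serve the Golgi, lysosome motility, tubulin folding and the cilium. In male germ cells this machinery is known for building the acrosome from Golgi vesicles and for the transport that forms the sperm tail.

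With 1 library per group no difference has a replicate check or a p-value, and every value compares 2 libraries. The antigen transcripts ran against the sample titles: Kit stood at a listed 0 in the KIT-labelled library and 36.7 FPKM in the THY1-labelled one, and Thy1 at 78.8 and 0.723 FPKM. The value column of the KIT-labelled library is itself headed Thy1, and that of the THY1-labelled library is headed Kit. Directions below follow the sample titles, and all would turn round if the titles were exchanged. Spermatogonial markers were partly absent, with 6 of 17 listed at 0 in the KIT-labelled library and 2 of 17 in the THY1-labelled one, Zbtb16 and Lin28a in both. Of the 17, 4 were at least 2-fold higher in the KIT-labelled library and 8 in the THY1-labelled one, with summed levels of 195 and 362 FPKM. Named after their values were seen, Nanos2 (54.1 FPKM in the KIT-labelled library and 1.49 in the THY1-labelled one), Nanos3 (118 and 2.74) and Gfra1 (3.91 and 0.102), all known from undifferentiated spermatogonia, were higher in the KIT-labelled library. Stra8, induced as spermatogonia differentiate, was at 0.743 FPKM in the KIT-labelled library and 34.1 in the THY1-labelled one. Of the same list, Id4 (3.75 and 0.936) was also higher in the KIT-labelled library. Uchl1 (3.26 and 49.5), Dazl (1.70 and 75.2) and Ddx4 (1.77 and 140) were higher in the THY1-labelled library. So were Etv5 (2.95), Dmrt1 (4.98) and Sohlh2 (5.86), each at a listed 0 in the KIT-labelled library. Sohlh1 (6.93 and 6.12) lay within 2-fold, and Ret and Sall4 stayed under 1 FPKM in both. Markers of other cell types moved between the libraries. The summed FPKM of 13 meiotic markers was 166 (KIT-labelled) and 1418 (THY1-labelled), and each of the 13 was at least 2-fold higher in the THY1-labelled library. Summed FPKM, with the KIT-labelled library first, was 254 and 12935 for 9 Leydig markers, 5014 and 1663 for 12 spermatid markers, 45.5 and 916 for 10 Sertoli markers, 234 and 866 for 10 peritubular markers, 271 and 966 for 10 macrophage markers, and 131 and 15.4 for 9 T-cell markers, Thy1 among them. In the THY1-labelled library Clu gave 848 FPKM of the Sertoli sum, Sparc 680 of the peritubular sum and Aif1 880 of the macrophage sum. Past 2-fold toward the KIT-labelled library were 1 of 9 Leydig, 7 of 12 spermatid, 4 of 10 Sertoli, 4 of 10 peritubular, 5 of 10 macrophage and 5 of 9 T-cell markers, and toward the THY1-labelled library 7, 5, 4, 3, 3 and 1 of the same lists. Listed at 0 in the KIT-labelled library were Dmc1, Hormad1 and Tex11 (meiotic), Hsd3b6 and Hsd17b3 (Leydig), Crem and Spaca1 (spermatid), Fshr and Inha (Sertoli), Des and Dcn (peritubular), and Cd3g and Cd2 (T cell). In the THY1-labelled library these were C1qc (macrophage), Des, Cd3e, Cd3g and Cd2. Their part in the differences below was not tested, and in bulk RNA fewer cells of a type cannot be told apart from less RNA per cell.

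By an estimate from low values, depth was lower in the KIT-labelled library. The product of FPKM and transcript bases, read at percentile 5 of genes with a single transcript, was 2742 in it and 435 in the THY1-labelled library. That low-end value was taken as the worth of 1 fragment, 6.31 times larger in the KIT-labelled library. Dividing by it gave an estimated fragment number per gene, a rough guide to how much sequence stands behind each value. A listed 0 can be a failed estimate in these tables and is given only as listed.

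As a whole the families were spread over both directions much as all genes were. In at least 1 of the libraries 71 members reached 1 FPKM, and these are called usable below. A size of 2-fold is meant on the log2(FPKM + 1) scale throughout. Of them, 28 (39.4%) exceeded 2-fold toward the KIT-labelled library, beside 39.5% of the 15573 usable genes. Another 28 (39.4%) exceeded 2-fold toward the THY1-labelled library, beside 41.1% of usable genes, and 15 lay within 2-fold. After scaling the libraries to a median ratio of 1 over genes above 0 in both, the split (KIT-labelled first) was 20 and 32 members, beside 5075 and 7036 of all genes. With equal upper quartiles it was 30 and 26 members, beside 6649 and 6123 of all genes. The median difference, KIT-labelled minus THY1-labelled, was 0.33 for members and -0.0026 for all genes. Scaling to a median ratio of 1 made it -0.19 for members and -0.57 for all genes. Summed over the 82 genes the libraries held similar amounts, 1385 FPKM (KIT-labelled) and 1364 FPKM (THY1-labelled). Without Arl9 the sums were 1044 and 1325 FPKM. The remaining 11 members stayed under 1 FPKM in both libraries, and 8 of them were listed at 0 in both: Arl11, Arl14, Rab9, Rab9b, Rab15, Rab17, Rab33b and Rab38. In the KIT-labelled library 12 members were listed at 0 that were above 0 in the other, and 5 members in the THY1-labelled library.

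Which members were abundant differed. The 10 members with the highest FPKM in each library had 1 gene in common, Rab10. In the KIT-labelled library the highest were Arl9 (341 FPKM), Arl8b (108), Rab24 (96.3), Rab28 (69.3) and Rab1b (67.6). In the THY1-labelled library they were Arl3 (152 FPKM), Rab5c (82.2), Rab1 (71.9), Rab14 (69.1) and Arf4 (66.2). Arl9 alone made up 24.6% of the summed FPKM of members in the KIT-labelled library. Across the 82 members Spearman's rho between the libraries was 0.44, against 0.48 across all 20662 genes, a description in which genes share the same 2 libraries.

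**Figure D1:**
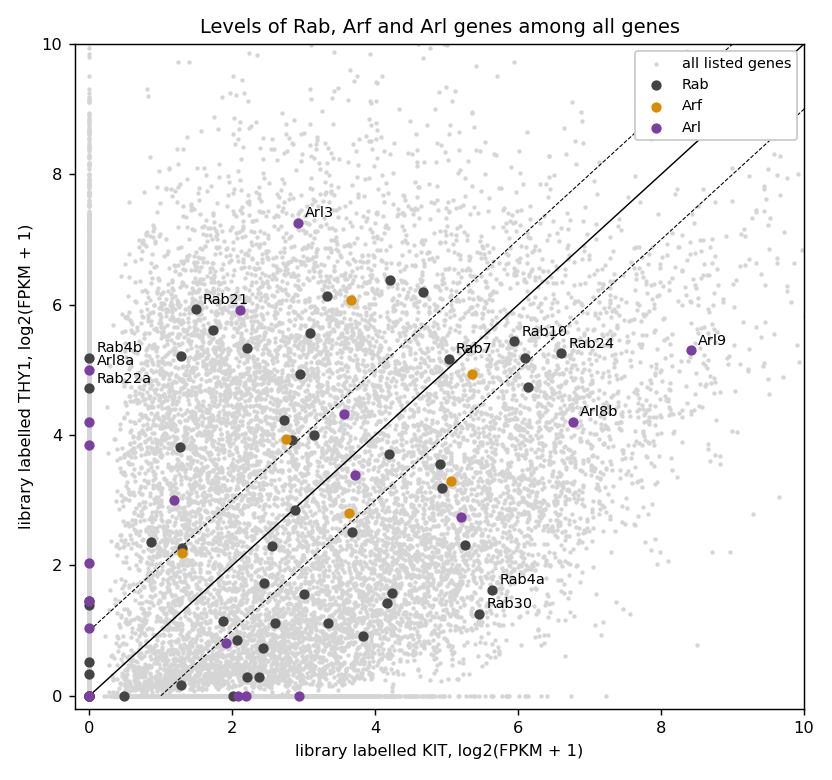
Each point is a gene, with log2(FPKM + 1) in the KIT-labelled library on the x axis and in the THY1-labelled library on the y axis, grey for all genes and coloured for Rab, Arf and Arl. The solid line marks equal values and the dashed lines 2-fold, and genes above 10 on either axis lie outside the frame. Rab7 and Rab10 lie between the dashed lines, and members spread to both sides.

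Promoters are shown for the 2 members with the largest difference in each direction among those with at least 10 estimated fragments and a promoter at hand, and for the member with the highest level in the THY1-labelled library, all chosen after their values were seen. Sequences are 300-base windows across the annotated start from RefSeq (build GRCm38.p6), printed 5′ to 3′ on the gene's strand. Capitals mark matches on either strand to the GC box GGGCGG, the box motif CCAAT, the TATA box TATAAA, the cAMP response element TGACGTCA or the E-box CACGTG. Rab4b, on the minus strand at chr7:27178834-27179133, and Arl8a, on the plus strand at chr1:135146584-135146883, were listed at 0 in the KIT-labelled library. Arl3 lies on the minus strand at chr19:46573133-46573432. Arl9, on the plus strand at chr5:77003805-77004104, and Rab19, on the plus strand at chr6:39381103-39381402, were higher in the KIT-labelled library.
Rab4b: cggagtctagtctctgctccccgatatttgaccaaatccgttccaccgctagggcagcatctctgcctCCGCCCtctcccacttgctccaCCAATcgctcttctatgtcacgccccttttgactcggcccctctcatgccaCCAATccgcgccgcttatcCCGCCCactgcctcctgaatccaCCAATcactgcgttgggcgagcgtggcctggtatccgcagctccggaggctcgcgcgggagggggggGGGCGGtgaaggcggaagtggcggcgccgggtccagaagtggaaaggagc
Arl8a: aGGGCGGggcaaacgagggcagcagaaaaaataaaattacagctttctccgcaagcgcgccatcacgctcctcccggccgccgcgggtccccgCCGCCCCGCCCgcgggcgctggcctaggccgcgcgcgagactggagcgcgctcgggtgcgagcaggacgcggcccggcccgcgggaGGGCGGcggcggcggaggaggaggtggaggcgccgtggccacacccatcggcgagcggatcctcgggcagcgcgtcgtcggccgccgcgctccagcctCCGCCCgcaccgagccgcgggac
Arl3: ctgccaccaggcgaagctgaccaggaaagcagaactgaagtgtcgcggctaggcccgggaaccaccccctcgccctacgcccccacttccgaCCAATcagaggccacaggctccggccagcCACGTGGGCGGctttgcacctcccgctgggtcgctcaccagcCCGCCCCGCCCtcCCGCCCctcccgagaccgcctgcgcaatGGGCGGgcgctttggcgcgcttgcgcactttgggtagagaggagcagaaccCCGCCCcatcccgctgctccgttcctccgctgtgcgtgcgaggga
Arl9: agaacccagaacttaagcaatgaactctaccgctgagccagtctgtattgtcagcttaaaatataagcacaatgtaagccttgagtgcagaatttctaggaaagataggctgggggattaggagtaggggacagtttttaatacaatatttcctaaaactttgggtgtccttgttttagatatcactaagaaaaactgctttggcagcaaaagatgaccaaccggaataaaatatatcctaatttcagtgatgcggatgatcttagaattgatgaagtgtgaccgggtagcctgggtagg
Rab19: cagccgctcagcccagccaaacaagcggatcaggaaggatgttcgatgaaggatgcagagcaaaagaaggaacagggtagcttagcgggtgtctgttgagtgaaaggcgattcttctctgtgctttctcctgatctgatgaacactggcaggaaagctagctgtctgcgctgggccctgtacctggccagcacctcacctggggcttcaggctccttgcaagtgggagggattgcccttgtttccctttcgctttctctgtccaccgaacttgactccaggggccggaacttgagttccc

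These windows differed in base composition. The Rab4b promoter held 3 GC boxes, 3 CCAAT boxes and 25 CpG dinucleotides, and that of Arl8a 5 GC boxes and 51 CpG. The Arl3 window held 6 GC boxes, 1 CCAAT box, 1 E-box that overlaps a GC box, and 29 CpG. The windows of Arl9 and Rab19 held no match to any of the 5 motifs, with 4 and 9 CpG. Over 84 promoters of the 67 members with an entry, 73.8% held a GC box, against 35.7% of all 32851 promoters, and the median CpG number was 24.5 against 7. A CCAAT box stood in 46.4% (37.4% of all promoters), a TATA box in 5.95% (13.6%), an E-box in 11.9% (7.15%) and a cAMP response element in 4.76% (1.79%). By direction, a GC box was found in 64.3% of 28 promoters (20 genes) of members higher in the KIT-labelled library and in 85.2% of 27 promoters (25 genes) of members higher in the THY1-labelled library, with median CpG numbers of 20 and 26. Of 16 promoters (12 genes) of members within 2-fold, 87.5% held one, with a median of 26.5 CpG. Of 13 promoters (10 genes) of members under 1 FPKM in both libraries, 53.8% did, with a median of 9 CpG. Some genes gave more than 1 promoter, and promoters of all genes were not split by direction. No link of motif and direction is therefore read from these shares.

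**Figure D2:**
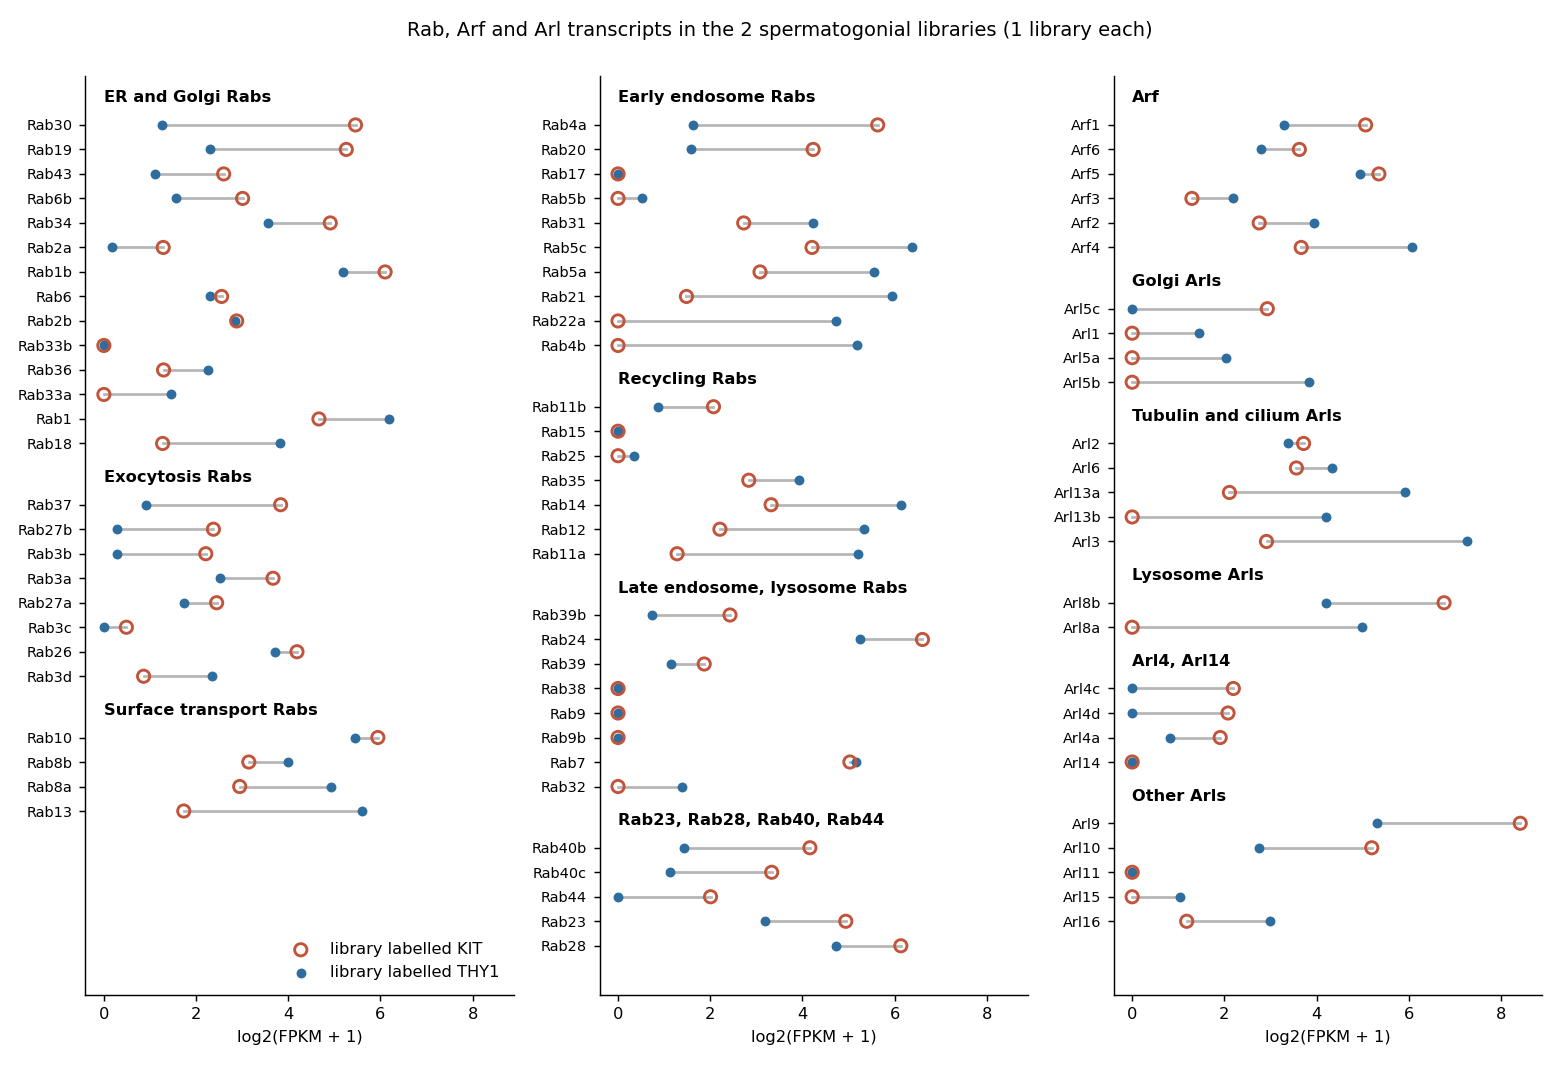
Levels of the 82 members on the log2(FPKM + 1) scale, grouped by role, with open red circles for the KIT-labelled library and filled blue circles for the THY1-labelled library (1 library each). Early endosome and recycling Rabs mostly have the blue point to the right, and the group of Rab23, Rab28, Rab40 and Rab44 the red point.

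Rabs of early endosomes were mostly higher in the THY1-labelled library. Of 8 usable members, 2 exceeded 2-fold toward the KIT-labelled library and 6 toward the THY1-labelled one. Among all genes 39.5% and 41.1% did, and with so few members no tendency is read from 6 of 8. The median difference was -2.32 (KIT-labelled minus THY1-labelled), with summed levels of 98.8 FPKM (KIT-labelled) and 272 FPKM (THY1-labelled). Rab5, the GTPase that drives endosome fusion, is encoded by 3 paralogues. Rab5c stood at 17.5 FPKM in the KIT-labelled library and 82.2 in the THY1-labelled one, a difference of -2.17, and Rab5a at 7.46 and 46.2 FPKM. Rab5b was listed at 0 in the KIT-labelled library and at 0.430 FPKM in the THY1-labelled one. Rab21, which carries integrins inward, had the largest ratio among members above 0 in both libraries toward the THY1-labelled one, at 1.80 against 60.1 FPKM (33.4-fold higher in the THY1-labelled library). Rab22a, of the same branch as Rab5, was listed at 0 in the KIT-labelled library and stood at 25.4 FPKM in the THY1-labelled one. At the depth of the KIT-labelled library, that level would have been worth 66.3 fragments. Its close relative Rab31 was at 5.62 (KIT-labelled) and 17.8 (THY1-labelled) FPKM.

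The remaining endosomal Rabs included both exceptions. Rab4, which returns receptors rapidly to the surface, was split by paralogue: Rab4a stood at 48.6 FPKM in the KIT-labelled library and 2.08 in the THY1-labelled one, and Rab4b at a listed 0 and 35.5 FPKM. The summed Rab4 level differed less, at 48.6 (KIT-labelled) and 37.5 (THY1-labelled) FPKM. Rab4b shares exon sequence on the same strand with Gm21983, so reads there cannot be assigned to 1 gene with certainty. Rab20, a GTPase of phagosomes, was at 17.8 FPKM in the KIT-labelled library and 1.98 in the other, on an estimated 9.03 fragments. Rab17, known from epithelial transcytosis, was listed at 0 in both.

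Rabs of recycling endosomes had 1 of 5 usable members higher in the KIT-labelled library and 4 higher in the THY1-labelled one. Among all genes 39.5% and 41.1% were, and with so few members no tendency is read from 4 of 5. The median difference of these Rabs was -2.81, with sums of 23.4 FPKM in the KIT-labelled library and 159.7 in the THY1-labelled one. Rab11a, which directs recycling endosomes and vesicle delivery to the surface, stood at 1.43 FPKM in the KIT-labelled library and 36.0 in the THY1-labelled one. Its paralogue Rab11b went the other way at 3.20 and 0.815 FPKM, low in both. Rab14, which links the Golgi with endosomes, was at 8.99 (KIT-labelled) against 69.1 FPKM (THY1-labelled), a difference of -2.81. Rab12, which steers transferrin receptor to lysosomes, was at 3.63 against 39.3 FPKM. Rab35, of the fast recycling route, differed least at 6.14 against 14.2 FPKM. Rab25, the epithelial Rab11 relative, was at a listed 0 and 0.263 FPKM, and Rab15 was listed at 0 in both. With at least 10 estimated fragments behind the larger value, 6 of 7 early endosome Rabs and 4 of 4 recycling Rabs were higher in the THY1-labelled library. Of all genes selected the same way, 51.8% were. Each member passed by the library where it was higher, and depth was lower in the KIT-labelled one. The selection dropped Rab20 (9.03 fragments) and Rab11b (7.13), both higher in the KIT-labelled library, so no direction is read from it. Scaling to a median ratio of 1 brought Rab11b within 2-fold, and the other 2 scalings brought Rab35 within it.

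Rabs that carry vesicles to the surface showed no member higher in the KIT-labelled library past 2-fold. Of 4, 2 (50.0%) were past 2-fold toward the THY1-labelled library, beside 41.1% of all genes. Rab13, known from tight junctions, was at 2.32 FPKM in the KIT-labelled library and 47.7 in the THY1-labelled one. Rab8a, of exocytosis and cilium assembly, was at 6.71 and 29.5 FPKM. Its paralogue Rab8b stood within 2-fold at 7.84 and 15.0 FPKM, as did Rab10, of glucose transporter delivery, at 60.5 and 42.4. Rab10 thus had a high level in both libraries, at percentile 92.7 of all genes in the KIT-labelled and 86.9 in the THY1-labelled one.

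Of 7 usable Rabs of regulated secretion, 4 (57.1%) were at least 2-fold higher in the KIT-labelled library and 1 (14.3%) in the THY1-labelled one (median 1.15). The shares of all genes were 39.5% and 41.1%, and with so few members no tendency is read from 4 of 7. Rab37, of secretory granules, was at 13.3 FPKM in the KIT-labelled library and 0.886 in the THY1-labelled one. Rab3a, the vesicle Rab also known from the acrosome reaction of sperm, was at 11.7 and 4.72 FPKM. Rab3b was at 3.63 and 0.221 FPKM, Rab3c at 0.402 and a listed 0, and Rab3d was the reverse at 0.817 and 4.11. Rab3a and Rab3d thus made up 70.7% and 4.93% of the summed Rab3 FPKM in the KIT-labelled library, against 52.1% and 45.4% in the THY1-labelled one. Rab27b, which docks secretory granules with Rab27a, was at 4.19 and 0.224 FPKM. Rab27a itself (4.45 and 2.33) and Rab26 (17.2 and 12.1), of granule maturation, lay within 2-fold. These values were low, and at least 10 estimated fragments stood behind 3 of the 7 members, of which 2 were higher in the KIT-labelled library. Scaling to a median ratio of 1 brought Rab3a within 2-fold, leaving 3 and 1.

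Rabs between endoplasmic reticulum and Golgi were mixed. Of 13 usable members, 6 (46.2%) were at least 2-fold higher in the KIT-labelled library and 3 (23.1%) in the THY1-labelled one (median 0.91). Beside them stood 39.5% and 41.1% of all genes. The split of these Rabs was 3 and 4 after scaling to a median ratio of 1 and 7 and 3 with the other 2 scalings. Rab30, of the Golgi, had the largest difference of any member toward the KIT-labelled library, at 43.0 FPKM there and 1.40 in the other (30.7-fold higher, on an estimated 148 fragments). Rab19, a less studied Golgi Rab, was at 37.3 and 3.96 FPKM. Rab34, which works at the Golgi and the early cilium, was at 29.1 and 10.8 FPKM, Rab43, also of the Golgi, at 5.06 and 1.16, and Rab6b, the neuronal form of Rab6, at 7.05 and 1.96. Rab43 exons overlap those of Gm45140 on the same strand by up to 3980 bases, and its value rested on an estimated 8.49 fragments. In the other direction, Rab18, of the endoplasmic reticulum and lipid droplets, was at 1.42 (KIT-labelled) against 13.1 FPKM (THY1-labelled), and Rab33a at a listed 0 against 1.73.

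Core Golgi Rabs were closer. Rab1, which starts traffic out of the endoplasmic reticulum, was at 24.4 FPKM in the KIT-labelled library and 71.9 in the THY1-labelled one, while Rab1b was at 67.6 and 35.5. Together they summed to 92.0 and 107 FPKM. Rab6, of retrograde Golgi transport, was at 4.87 and 3.92 FPKM, Rab2b, of the early Golgi, at 6.37 and 6.20, and Rab36, a relative of Rab34, at 1.45 and 3.79, each within 2-fold. Rab2a was low in both, at 1.44 and 0.125 FPKM, and Rab33b, of Golgi and autophagy, was listed at 0 in both.

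Late endosome and lysosome Rabs had 2 of 5 usable members higher in the KIT-labelled library and 1 in the THY1-labelled one. Among all genes 39.5% and 41.1% were. After scaling to a median ratio of 1, the split of these Rabs was 1 and 1. Rab7, which governs fusion with lysosomes, was at 31.7 FPKM in the KIT-labelled library and 35.0 in the THY1-labelled one, within 2-fold. Rab24, linked to autophagy, was at 96.3 and 37.2 FPKM. Its exons overlap those of Prelid1 on the opposite strand by up to 830 bases, and the sources used here do not state whether counting used strand. Rab39b, known from human neurodevelopmental disease, was at 4.38 and 0.659 FPKM, and Rab39 within 2-fold at 2.65 and 1.21. Rab32, of melanosomes and other lysosome-related organelles, was at a listed 0 and 1.62 FPKM, and its partner Rab38 was listed at 0 in both, as were Rab9 and Rab9b, which return receptors to the Golgi.

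The remaining Rabs, grouped here because they fit none of these routes, were each at least 2-fold higher in the KIT-labelled library (5 of 5, beside 39.5% of all genes, median 2.01). Scaling to a median ratio of 1 left 4, with Rab28 within 2-fold. Rab28, known from retinal cilia, was at 69.3 FPKM in the KIT-labelled library and 25.6 in the THY1-labelled one. Rab23, an inhibitor of Hedgehog signalling, was at 29.7 and 8.09 FPKM. Rab40b and Rab40c, which carry a SOCS box and recruit ubiquitin ligases, were at 16.9 and 1.69 and at 9.08 and 1.17 FPKM. Rab44, an atypical large Rab, was at 3.02 FPKM and a listed 0. At least 10 estimated fragments stood behind the larger values of Rab28, Rab23 and Rab40b, and fewer behind Rab40c (8.29) and Rab44 (4.52). A gene passes this selection by the library where it was higher, so no direction is read from it. Of all genes selected the same way, 30.6% were higher in the KIT-labelled library. With 5 members grouped as a remainder, no shared tendency is read from 5 of 5.

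All 6 Arf genes were above 0 in both libraries and 3 lay within 2-fold. Another 1 (16.7%) was higher in the KIT-labelled library and 2 (33.3%) in the THY1-labelled one, beside 39.5% and 41.1% of all genes. These calls turned with scaling: a median ratio of 1 gave 1 and 3 (Arf3 added), and each of the other 2 scalings gave 2 and 1 (Arf6 added, Arf2 lost). Their sums were 103 FPKM (KIT-labelled) and 129 FPKM (THY1-labelled). Arf1, which recruits the COPI coat to the Golgi, was at 32.5 FPKM in the KIT-labelled library and 8.80 in the THY1-labelled one. Arf4, of class II, was the reverse at 11.7 and 66.2 FPKM. Arf2, a class I form found in mice, was at 5.75 and 14.4 FPKM. Arf5 (39.8 and 29.6), Arf3 (1.46 and 3.57) and the plasma membrane Arf6 (11.4 and 5.95) lay within 2-fold as deposited. Arf5 and Arf1 were thus the leading forms in the KIT-labelled library (38.8% and 31.6% of the summed Arf FPKM), and Arf4 in the THY1-labelled library (51.5%).

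Arl genes of tubulin folding and the cilium were mostly higher in the THY1-labelled library. Of 5, 0 exceeded 2-fold toward the KIT-labelled library and 3 toward the THY1-labelled one (median -3.81, against -0.0026 over all genes). Among all genes 39.5% and 41.1% did, and with so few members no tendency is read from 3 of 5. Arl3, which unloads lipid-modified cargo inside the cilium, was at 6.54 FPKM in the KIT-labelled library and 152 in the THY1-labelled one, 23.2-fold higher in the THY1-labelled library on an estimated 351 fragments. Arl13b, which activates Arl3 and resides in the cilium, was at a listed 0 and 17.5 FPKM, a level worth 22.5 fragments at the depth of the KIT-labelled library. Its X-linked relative Arl13a was at 3.32 and 59.6 FPKM. Arl6, which recruits the BBSome coat, was within 2-fold at 10.8 and 19.0 FPKM, and Arl2, a tubulin-folding regulator, at 12.2 and 9.49. With the 13 meiotic markers all higher in that library too, the part of meiotic cells in these values was not tested.

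Golgi and lysosome Arls were split by paralogue. Arl8, which couples lysosomes to kinesin, was represented in the KIT-labelled library by Arl8b (108 FPKM, against 17.4 in the THY1-labelled library), with Arl8a at a listed 0 against 30.9 FPKM. The Arl8a level in the THY1-labelled library would have been worth 19.3 fragments in the other. Arl5b and Arl5a, of endosome-to-Golgi transport, were at a listed 0 in the KIT-labelled library, against 13.3 and 3.12 FPKM in the THY1-labelled one. Arl5c was the reverse, at 6.63 FPKM and a listed 0, on an estimated 3.80 fragments. Arl1, which recruits golgins, was at a listed 0 and 1.74 FPKM.

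Among the other Arls, Arl9 had the highest level of any member in either library, at 341 FPKM in the KIT-labelled library and 38.5 in the THY1-labelled one. Its longest annotated transcript is 534 bases, so the value rests on an estimated 66.4 fragments, and its exons overlap 1700112J05Rik on the opposite strand. Arl10 was at 35.7 and 5.70 FPKM. The Arl4 genes, which recruit Arf exchange factors to the plasma membrane, were all low: Arl4c at 3.58 FPKM (KIT-labelled) and a listed 0, Arl4d at 3.23 and a listed 0, and Arl4a at 2.76 and 0.757 (THY1-labelled). Each rested on under 10 estimated fragments. Arl16 was at 1.27 FPKM in the KIT-labelled library and 6.99 in the THY1-labelled one, Arl15 at a listed 0 and 1.05, and Arl11 and Arl14 were listed at 0 in both.

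Paralogues within a subfamily could take different directions. Of 18 subfamilies with at least 2 members (the Arf genes counted as one), 6 had members past 2-fold in opposite directions: Rab3, Rab4, Rab11, Arl5, Arl8 and the Arf genes. The members as a whole were spread like all genes, of which 39.5% and 41.1% were past 2-fold each way, so nothing particular to paralogues is read from this count. In Rab4, Arl5 and Arl8 the split rests on listed zeros, and in Rab3, Rab11 and Arl5 on levels in the KIT-labelled library of under 10 estimated fragments (Rab3a 6.65, Rab11b 7.13, Arl5c 3.80). In 16 subfamilies above 0 in both libraries the member with the highest level differed between libraries in 10 and was the same in 6. Examples of a change in the leading member were Rab4 (Rab4b 0% and 94.4% of the subfamily, KIT-labelled first), Rab11 (Rab11a 30.9% and 97.8%) and Rab1 (Rab1 26.5% and 67.0%). Rab5 had a similar makeup, with Rab5c at 70.1% and 63.8%, while its sum differed at 24.9 and 129 FPKM.

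**Figure D3:**
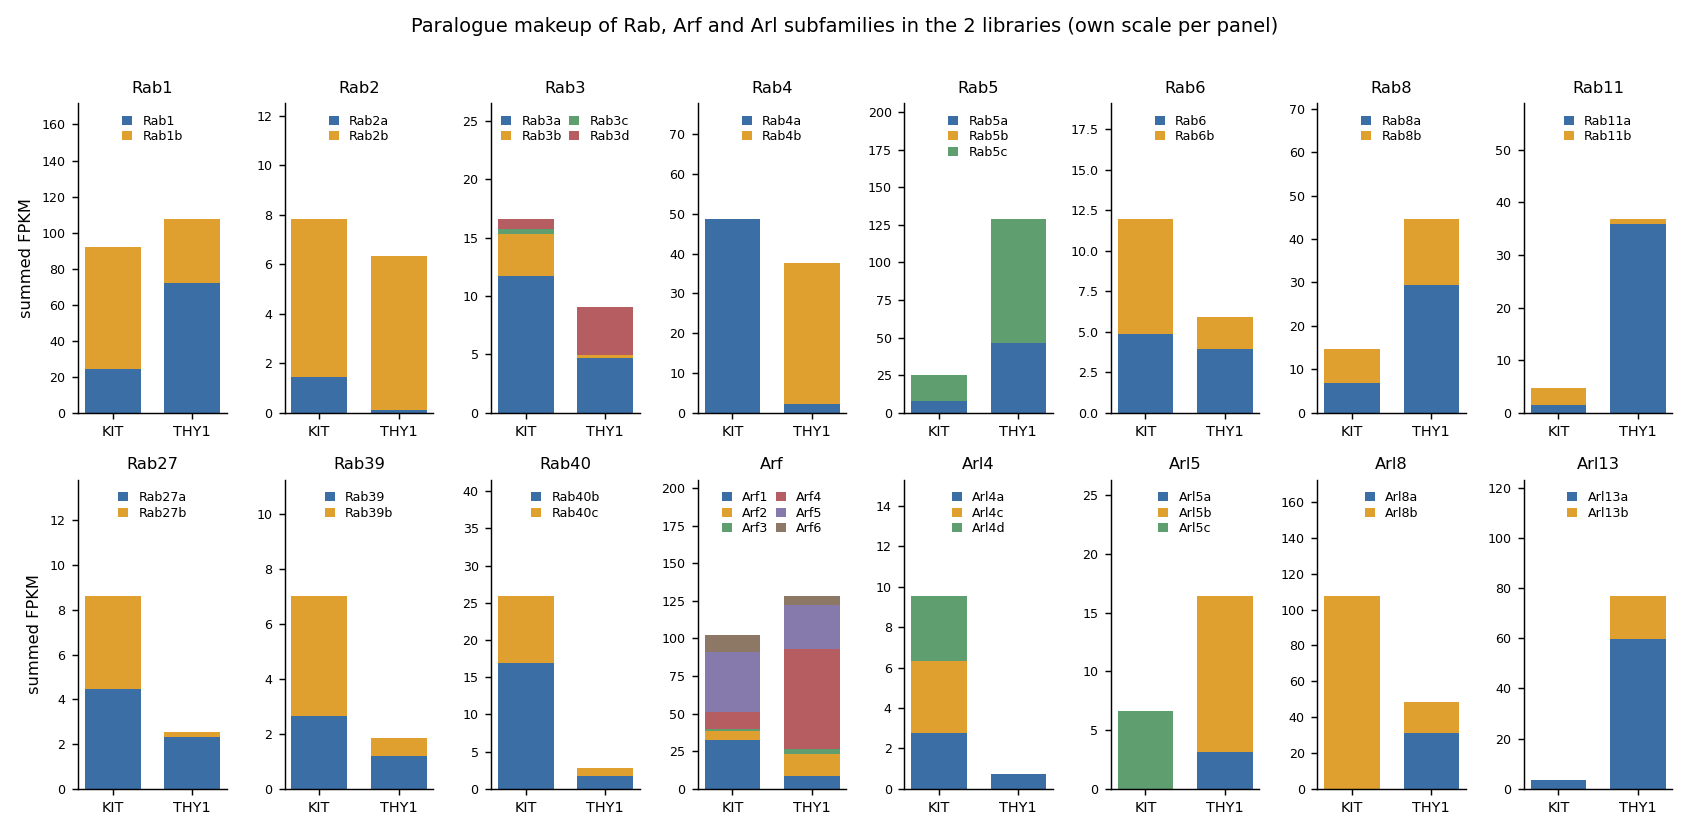
Summed FPKM of each subfamily above 0 in both libraries (1 panel each, own scale), with the KIT-labelled library left of the THY1-labelled one and colours for paralogues. Rab4, Rab11, Arl5 and Arl8 have bars of mostly different colours in the 2 libraries, and the Rab5 bars have the same colours at different heights.

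Near-identical gene copies touch some of the low values. Processed pseudogenes with at least 95% identity over at least 200 bases were annotated for 8 members: Arl1, Rab2a, Rab5b, Rab6, Rab7, Rab8b, Rab9 and Rab11b. Reads of such genes can align to more than 1 place, and the sources used here do not state how they were assigned. Rab11b matches Rab11b-ps2 at 99.8% over 654 bases and Rab5b matches Gm13991 at 99.4% over 648 bases. Levels of Rab5b, Rab2a, Rab9, Rab11b and Arl1 were at most 3.20 FPKM in either library, and of Rab7 at least 31.7, so the 8 were not uniformly low. The Rab33b transcript shares a stretch of about 200 bases with 30 other genes. Without the 8 members 26 and 27 of 65 were past 2-fold toward the KIT-labelled and THY1-labelled library.

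Each member was given the estimated fragments of the library where it was higher, so the lower depth of the KIT-labelled library by itself gives lower numbers to the members higher there. Members higher in the KIT-labelled library (28) rested on a median of 11.0 estimated fragments. Those higher in the THY1-labelled one rested on a median of 155, over the 28 without Rab1, which has no length and no estimate. Of the 28 higher in the KIT-labelled library, 13 had under 10 estimated fragments behind the larger value. In the THY1-labelled library it was 4 of the 28 higher there, with Rab1 among the 28 not estimated. Over the 46 members with at least 10, 15 were higher in the KIT-labelled library and 23 in the THY1-labelled one (32.6% and 50.0%), beside 30.6% and 51.8% of the 11666 genes selected the same way.

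**Figure D4:**
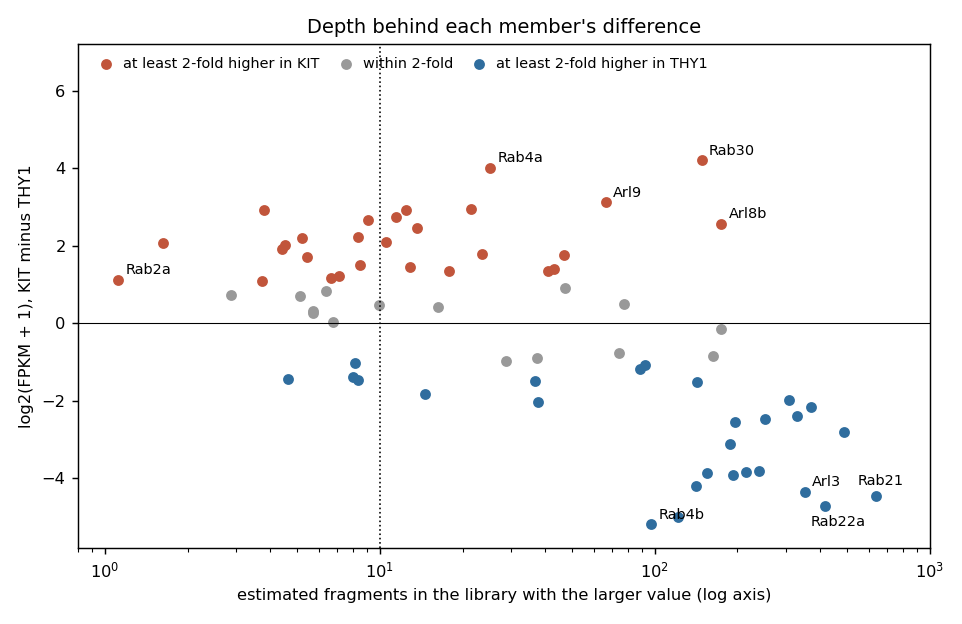
Difference on the log2(FPKM + 1) scale (y axis, KIT-labelled minus THY1-labelled) against the estimated fragments in the library with the larger value (x axis, log scale), 1 point per member with at least 1 FPKM and an annotated length, and a dotted line at 10 fragments. Red points, higher in the KIT-labelled library, spread from 1.12 to 175 fragments, and blue points, higher in the THY1-labelled library, from 4.62 to 636, so the ranges overlap.

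Genes that regulate these GTPases or act for them were more often higher in the THY1-labelled library. Of 173 usable regulators and effectors, 36 (20.8%) exceeded 2-fold toward the KIT-labelled library and 89 (51.4%) toward the THY1-labelled one, beside 39.5% and 41.1% of all genes. Among genes with at least 10 estimated fragments the shares were 18.5% and 56.7% of 157, beside 30.6% and 51.8%. That selection favours genes higher in the THY1-labelled library, where depth was greater. The medians were -1.17 for regulators and effectors and 0.33 for the GTPases. No difference between these gene groups was tested.

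Genes that equip Rabs with their lipid tail and recycle them were higher in the KIT-labelled library for 0 of 6 and in the THY1-labelled one for 4 (66.7%). The shares of all genes were 39.5% and 41.1%. Rabggtb, the catalytic subunit of Rab geranylgeranyl transferase, was at 3.02 FPKM in the KIT-labelled library and 123 in the THY1-labelled one, whereas its partner Rabggta was at 26.0 and 16.4. The dissociation inhibitor Gdi2 was at 64.1 FPKM in the KIT-labelled library and 148 in the THY1-labelled one. Rabac1, a Rab acceptor of the Golgi, was at 136 and 91.9 FPKM, within 2-fold.

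Exchange factors of Rabs numbered 10 higher in the KIT-labelled library and 18 in the THY1-labelled one of 36. That was 27.8% and 50.0%, beside 39.5% and 41.1% of all genes. Rab3il1, an activator of Rab8 and Rab3a, was at a listed 0 in the KIT-labelled library and 185 FPKM in the THY1-labelled one. Dennd1a, an activator of Rab35, and Trappc3, of the TRAPP complex that activates Rab1, were also listed at 0 there, against 18.3 and 14.8 FPKM. Sbf2 was at 0.666 against 28.1 FPKM, and Trappc6a was similar at 74.4 and 85.1. Rab GAPs numbered 7 and 17 of 33 (21.2% and 51.5%), or 4 and 20 after scaling to a median ratio of 1. Tbc1d21, a testis TBC-domain protein of the sperm tail, was at a listed 0 and 241 FPKM, as were Tbc1d15 (44.3), a GAP for Rab7, and Tbc1d13 (24.2), a GAP for Rab35. Evi5l was at 2.27 against 80.5 FPKM, and Tbc1d20, a GAP for Rab1 whose loss makes male mice sterile, at 21.6 against 176.

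Rab effectors numbered 9 higher in the KIT-labelled library and 18 in the THY1-labelled one of 40. That was 22.5% and 45.0%, beside 39.5% and 41.1% of all genes. Eea1, the endosome tether recruited by Rab5, was at 0.217 FPKM in the KIT-labelled library and 32.5 in the THY1-labelled one, the same direction as Rab5a and Rab5c. The golgins Golga2 and Golga5, tethers bound by Rab1, were at 0.516 against 46.7 and at 1.40 against 87.5 FPKM. Rph3al, a Rab3 and Rab27 effector, was at a listed 0 against 22.5 FPKM. Rabepk, a Rab9 effector, was at 55.9 against 152 FPKM, and Micall1, of recycling endosomes, was the reverse at 278 and 24.9. A short list of Rab-like genes and the Rab11 effector Rab11fip1 was left out of the 173 regulators and effectors. It had 2 of 8 in each direction, led by Rabl5, an intraflagellar transport subunit, at 4.35 against 80.2 FPKM. Also in it, Efcab4a was at 31.3 against 3.20 FPKM, Rab11fip1 at 15.9 against 1.48, Rasef at 2.54 against 16.1, and Rabl2 at 40.5 and 37.6.

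Partners of Arf and Arl were past 2-fold toward the THY1-labelled library more often than toward the KIT-labelled one. Exchange factors numbered 2 higher in the KIT-labelled library and 4 in the THY1-labelled one of 12 (1 and 6 after scaling to a median ratio of 1). As deposited 6 lay within 2-fold, and the 33.3% toward the THY1-labelled library lay below the 41.1% of all genes. GAPs numbered 5 and 12 of 22 (22.7% and 54.5%). Other partners numbered 3 and 16 of 24 (12.5% and 66.7%, median -2.61), beside 39.5% and 41.1% of all genes. Arl2bp, which binds Arl2 and Arl3, was at 3.71 FPKM in the KIT-labelled library and 928 in the THY1-labelled one. Unc119, the cargo carrier that Arl3 unloads, was at a listed 0 and 27.8 FPKM, and Elmod3, of a family of Arl GAPs, at a listed 0 and 14.3. Sar1b, counted in this list though it is itself a GTPase, of the COPII coat, was at a listed 0 and 75.8 FPKM. Gga2, an Arf-dependent adaptor of the Golgi, was the reverse at 142 and 16.3.

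The exchange factors Arfgef1 (2.25 against 72.6 FPKM), Gbf1 (23.2 against 76.5), Cyth1 (1.89 against 44.6) and Cyth2 (15.0 against 71.4), with the KIT-labelled library first, were higher in the THY1-labelled one. Psd, which activates Arf6, was at 120.4 and 45.5 FPKM. Of the GAPs, Agfg1, needed for acrosome formation in mice, was at 1.04 FPKM in the KIT-labelled library and 64.2 in the THY1-labelled one. Arfgap3, of the Golgi coat cycle, was at 0.999 against 62.0 FPKM, Smap2 at a listed 0 against 47.6, Smap1 at 7.71 against 94.0 and Git1 at 8.80 against 116. Adap1 was at 17.9 FPKM in the KIT-labelled library and 0.0567 in the other.

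**Figure D5:**
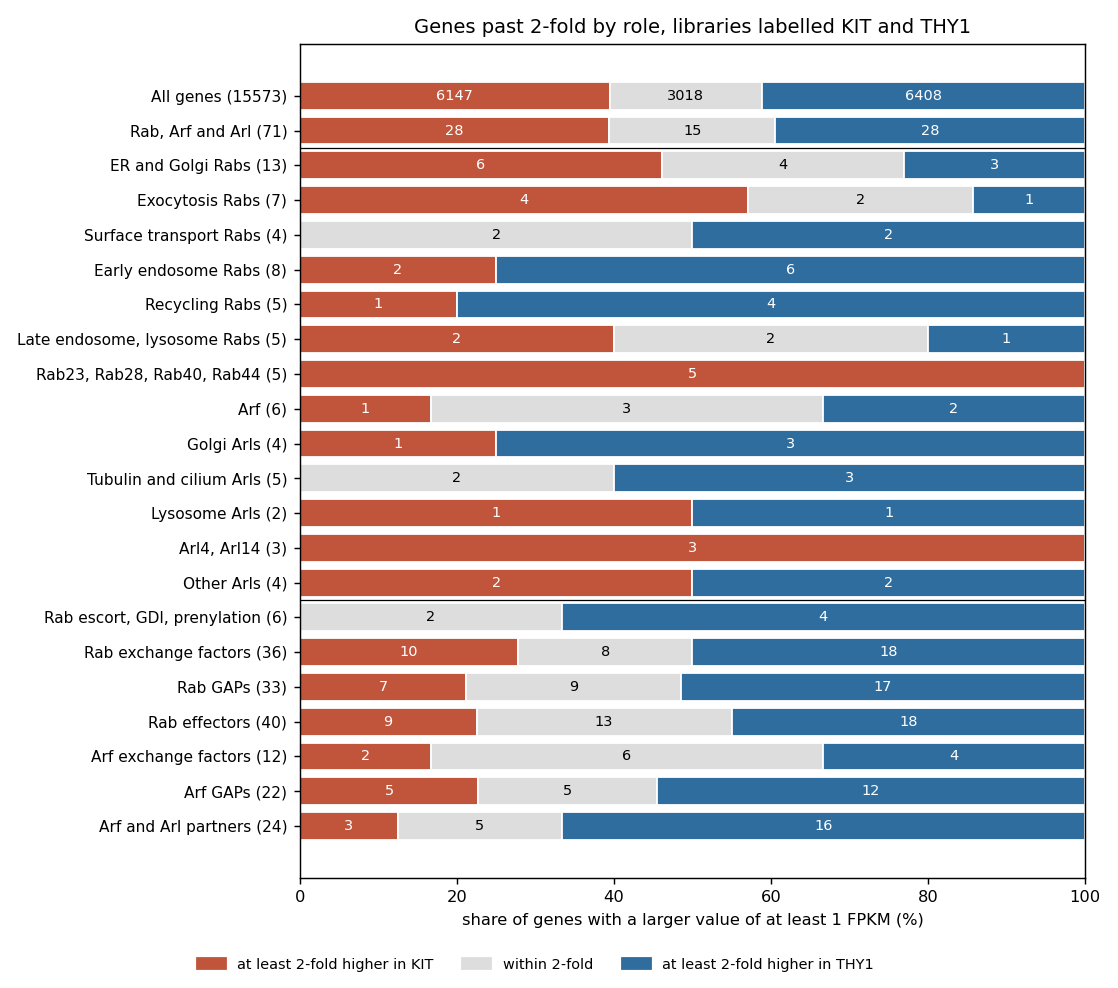
Share of genes (x axis, %) at least 2-fold higher in the KIT-labelled library (red), within 2-fold (grey) and at least 2-fold higher in the THY1-labelled library (blue), for all genes, the members, their role groups and the regulator lists. Numbers in the bars are genes, the number with at least 1 FPKM in the larger value stands in brackets, and the member bar (28, 15 and 28) resembles that of all genes.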

How the data were processed

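The deposited tables hold 1 gene symbol and 1 value per row and name no unit. Values were taken as FPKM because the submitters' processing notes name Cufflinks 2.1.1, beside TopHat 1.4.1, CASAVA and the build mm9 without roles, and because the values are decimals whose sums differ. Per the labels' protocols, ribosomal RNA was depleted and libraries were directional. Rpph1 took 71.8% of the summed FPKM in the KIT-labelled library and 37.9% in the THY1-labelled one. Tables were assigned by the series record and groups by sample titles. Differences are log2(FPKM + 1), KIT-labelled minus THY1-labelled, which understates changes of low genes. Genes reaching 1 FPKM in either library were counted past 2-fold, without a test, and the closing section gives the alternatives tried. Members and gene lists were chosen with earlier results of these data known. Any member may be named, and of each regulator list up to 4 genes with the largest difference (larger value at least 5 FPKM) and the 2 with the highest mean, of which some are not reported here. Lengths, exon overlaps and copies came from GENCODE M21 (GRCm38, not the build of the files, so no coordinate was carried over), which held 81 of 82 members (not Rab1, whose symbol matches more than 1 gene) and 98.2% of symbols. Fragment numbers divide FPKM times the longest transcript by the value at percentile 5 of single-transcript genes over 1000 bases. Copies were found with BLAST 2.17.0, and counting was checked on simulated data. Python 3.11.15, numpy 2.4.6 and pandas 2.3.3 were used.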

Additional observations from a re-analysis of the deposited data

How the results depend on the processing

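Alternatives were a pseudocount of 0.1, other minimums, 3 scalings, genes above 0 in both libraries and a size of 4-fold, and, chosen after seeing the data, at least 10 estimated fragments (which drops Rab1, without a length) and leaving out members with copies. Scaling changed KIT-labelled values by -0.56 (median ratio of 1), 0.27 (upper quartile) and 0.22 (sum without Rpph1) on the log2 scale. Differences moved by less for low genes because of the pseudocount, and not at all at a listed 0. The median became -0.19, 0.58 and 0.53 for members and -0.57, 0.26 and 0.22 for all genes. No member past 2-fold changed sign under any setting that kept it. With a minimum of 30 FPKM, 9 and 13 members were past 2-fold (KIT-labelled first), with a median of -0.83, and 2175 and 2815 of all genes. With genes above 0 in both libraries, 24 members and 5109 genes were higher in the KIT-labelled library and 18 and 4175 in the THY1-labelled one, and the median of the Arl8 pair was 2.56 (Arl8b alone), against -1.22. Past 4-fold there were 15 and 17 members and 3714 and 4575 of all genes. With at least 10 estimated fragments 15 members and 3564 genes were higher in the KIT-labelled library and 23 and 6038 in the THY1-labelled one, and the median of members was -1.03. These subsets hold fewer genes by construction. With a pseudocount of 0.1, a minimum of 5 FPKM or none, the counts of members and all genes stayed within 1.5 times those reported. No paired analysis was possible because each group has 1 library. Depth limits values in the KIT-labelled library most, and a listed 0 there may hide a low level.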

Other observations

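X-linked members numbered 5. Rab39b was at least 2-fold higher in the KIT-labelled library, Arl13a and Rab33a in the THY1-labelled one, and Rab9 and Rab9b were listed at 0 in both.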
